A study of Mus musculus with 27 samples.

Results

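The genes described here are 10 immediate early and stress-responsive transcription factors: the zinc-finger factors Egr1, Egr2 and Egr3, the FOS-type factors Fos, Fosb and Fosl2, the JUN-type factors Jun, Junb and Jund, and Atf3. They were taken by symbol from a table of 29872 genes, and all 10 passed the filter on low counts that left 14589 genes for testing. Expression was measured by polyA RNA-seq in 27 libraries of bone-marrow-derived macrophages, cells grown from mouse bone marrow for 5 days in medium with L-cell supernatant, from male mice of 8 to 10 weeks. Knockout (KO) cells were LysM-Cre+/+; GRIP1fl/fl, with floxed GRIP1 (the coactivator encoded by Ncoa2) and Cre expressed from the myeloid Lyz2 locus. The wild-type (WT) cells carry the genotype label LysM-Cre+/+; GRIP1wt/wt on a C57BL/6 background, while their titles read BL6. Cells of each genotype received vehicle, dexamethasone (100 nM), corticosterone (500 nM) or IL4 (10 ng/ml). The labels give 24 h for dexamethasone, corticosterone and IL4, and state no time for vehicle. There were 4 KO libraries for corticosterone, for dexamethasone and for vehicle, 3 for IL4 (numbered 1, 2 and 4), and 3 WT libraries for each of the 4 treatments. Whether replicates are separate mice is not stated in the labels, so the p-values rest on the spread from library to library, and that spread may be technical only.

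EGR factors bind GC-rich sites through zinc fingers, and their activity is held back by the corepressors Nab1 and Nab2. AP-1 is a dimer of a FOS-type and a JUN-type protein, or of JUN-type proteins alone, that binds the palindrome TGANTCA, and its effect on a gene depends on which subunits are paired. Many of these genes are switched on within minutes of growth factor, adhesion or inflammatory signals through MAP kinases and serum response factor. In macrophages IL4 acts through STAT6, Egr2 is a known factor of the IL4-activated state, Atf3 is a stress-induced repressor of inflammatory cytokine genes, and the glucocorticoid receptor restrains AP-1 on inflammatory genes.

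Because the letters near the start sites bear on which upstream factors could act there, the promoters of the 4 members that changed with IL4 in both genotypes (Egr2, Fos, Fosl2 and Atf3), and of Jun, are given first. RefSeq (GRCm38.p6) held windows of 250 bases before to 50 bases after a start site for 8 of the 10 members, in 12 windows. Egr1 and Egr3 had no window here. The Egr2 window shown, 1 of 5 for that gene, lies at chr10:67537680-67537979 on the plus strand, Fos at chr12:85473640-85473939 on the plus strand, Fosl2 at chr5:32136222-32136521 on the plus strand, Jun at chr4:95052173-95052472 on the minus strand and Atf3 at chr1:191183284-191183583 on the minus strand. Capitals mark a CArG box (the serum response factor motif) at position -133 in Egr2, the cAMP response core TGACG or its reverse CGTCA at -172 and -116 in Egr2, at -129 and -66 in Fos and at -7 in Atf3, and the AP-1 variant TGACATCA at -45 in Jun. Positions give the first base of the match, with -1 the base before the start site. Fosl2 held none of these and has no capitals.
Egr2: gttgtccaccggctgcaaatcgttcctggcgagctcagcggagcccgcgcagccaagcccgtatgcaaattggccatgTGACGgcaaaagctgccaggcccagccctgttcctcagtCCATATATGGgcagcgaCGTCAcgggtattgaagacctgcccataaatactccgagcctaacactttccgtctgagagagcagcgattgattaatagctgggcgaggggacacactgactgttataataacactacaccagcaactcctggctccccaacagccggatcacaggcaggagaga
Fos: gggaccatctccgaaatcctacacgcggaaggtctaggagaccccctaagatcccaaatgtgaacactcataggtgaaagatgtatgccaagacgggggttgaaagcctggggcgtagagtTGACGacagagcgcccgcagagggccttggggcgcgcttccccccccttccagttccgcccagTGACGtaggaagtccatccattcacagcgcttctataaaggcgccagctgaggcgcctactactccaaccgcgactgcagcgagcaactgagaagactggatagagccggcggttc
Fosl2: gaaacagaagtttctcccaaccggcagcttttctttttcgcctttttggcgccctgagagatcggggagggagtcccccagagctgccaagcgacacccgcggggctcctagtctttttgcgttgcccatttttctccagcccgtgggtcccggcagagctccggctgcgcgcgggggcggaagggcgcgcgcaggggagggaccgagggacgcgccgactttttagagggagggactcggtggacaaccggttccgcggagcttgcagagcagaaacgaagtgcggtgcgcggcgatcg
Jun: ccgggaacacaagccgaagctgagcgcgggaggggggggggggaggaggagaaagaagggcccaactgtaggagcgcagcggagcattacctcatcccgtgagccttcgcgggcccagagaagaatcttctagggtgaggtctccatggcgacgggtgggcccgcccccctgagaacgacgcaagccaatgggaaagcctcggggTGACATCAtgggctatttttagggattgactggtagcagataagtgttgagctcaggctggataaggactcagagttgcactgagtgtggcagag
Atf3: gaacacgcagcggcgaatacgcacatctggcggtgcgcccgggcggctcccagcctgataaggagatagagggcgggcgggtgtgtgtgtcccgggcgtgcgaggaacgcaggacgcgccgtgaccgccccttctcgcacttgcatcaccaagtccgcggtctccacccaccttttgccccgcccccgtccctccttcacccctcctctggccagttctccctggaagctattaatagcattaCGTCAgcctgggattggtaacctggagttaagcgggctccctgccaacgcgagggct
Both strands of each window were searched. A CArG box was found in 1.63% of 32851 mouse promoter windows. Among the 8 members with a window it was found in Egr2 alone, the gene with 5 of the 12 windows. Egr1, Egr3 and bases farther upstream were not searched. TGACG was found in 20.8% of windows and in 5 members (Egr2, Fos, Fosb, Junb and Atf3), and TGACATCA in 3.62% and in Jun. TGACG and TGACATCA were added to the search after these letters had been seen. No member window held the AP-1 palindrome TGANTCA (7.81% of windows), the full CRE TGACGTCA, which contains TGACG (1.79%), the EGR motif GCGTGGGCG (0.612%), the STAT6 palindrome TTC and GAA set 4 bases apart (6.95%) or the glucocorticoid receptor core AGAACA (19%). A match is a description of letters, and no match says only that these letters are not in these windows.

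The libraries held 20162729 to 48023102 counts. Ncoa2, the gene targeted, had 16.1 to 26.0 CPM (counts scaled to library size, with TMM factors) in KO libraries, against 55.7 to 93.4 CPM in WT libraries, with no overlap. The summed CPM of 8 macrophage markers was 5886 to 7073 in KO libraries and 5632 to 6806 in WT libraries. Transcripts of other cells were present in unequal amounts: 7 stromal cell genes summed to 10.7 to 42.9 CPM in KO libraries and 152 to 789 CPM in WT libraries, and 8 neutrophil genes to 6.18 to 17.1 CPM in KO libraries and 49.1 to 349 CPM in WT libraries. Outside IL4, 4 libraries stood apart in Arg1, an IL4-induced gene: KO vehicle 2 and 3 (117 and 78.4 CPM, against 2.63 and 4.27 CPM in KO vehicle 1 and 4), KO dexamethasone 2 (68.0 CPM) and WT dexamethasone 1 (67.1 CPM). KO dexamethasone 4 lay between, at 12.2 CPM, against 0.277 and 0.820 CPM in KO dexamethasone 1 and 3. It is not among the 4 libraries called high in Arg1 here and stayed in the fits without them. Member calls that were lost or gained without those 4 libraries are given with and without them. Without them, KO vehicle libraries 1 and 4, KO dexamethasone libraries 1, 3 and 4 and WT dexamethasone libraries 2 and 3 remained. Arg1 and Egr2 both rise with IL4, so this choice of libraries is tied to the members' levels and is not an independent check. In bulk RNA, fewer cells of a type and less RNA per cell cannot be told apart.

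Per length, the members covered a wide range of levels. In WT vehicle libraries Junb (94.97 ± 6.06 CPM per kb of exon, SD, n = 3), Jun (91.7 ± 8.11), Atf3 (83.8 ± 8.51), Fos (81.7 ± 13.5) and Jund (59.0 ± 6.57) formed an upper tier, and neighbours among Junb, Jun, Atf3 and Fos differed by less than their SDs. Fosl2 followed at 8.23 ± 0.937 CPM per kb. Egr1 (4.66 ± 4.90) and Egr2 (2.45 ± 0.985) could not be ordered beyond their spread. Egr3 (0.258 ± 0.141) and Fosb (0.115 ± 0.0404) were lowest, with raw counts of 3 to 59 and 2 to 32 per library over the whole series. In WT IL4 libraries the order was Atf3 (211 ± 6.07), Jun (141 ± 7.48), Jund (119 ± 4.21), Junb (82.5 ± 5.35), Egr2 (55.6 ± 3.26), Fos (28.8 ± 3.77) and Fosl2 (16.05 ± 1.06), each apart from its neighbour by more than their SDs, and then Egr1 (1.52 ± 1.22), Egr3 (0.0958 ± 0.0505) and Fosb (0.0543 ± 0.0173 CPM per kb). Over all 27 libraries the highest level was 234 times the lowest for Egr2, 49.9 times for Egr1, 15.8 times for Fosb, 14.9 times for Egr3 and 6.08 times for Atf3. The ratio was 5.00 for Jund, 3.68 for Fos and 2.89 for Fosl2, and Junb (2.04) and Jun (1.80) were the steadiest members.

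**Figure D1:**
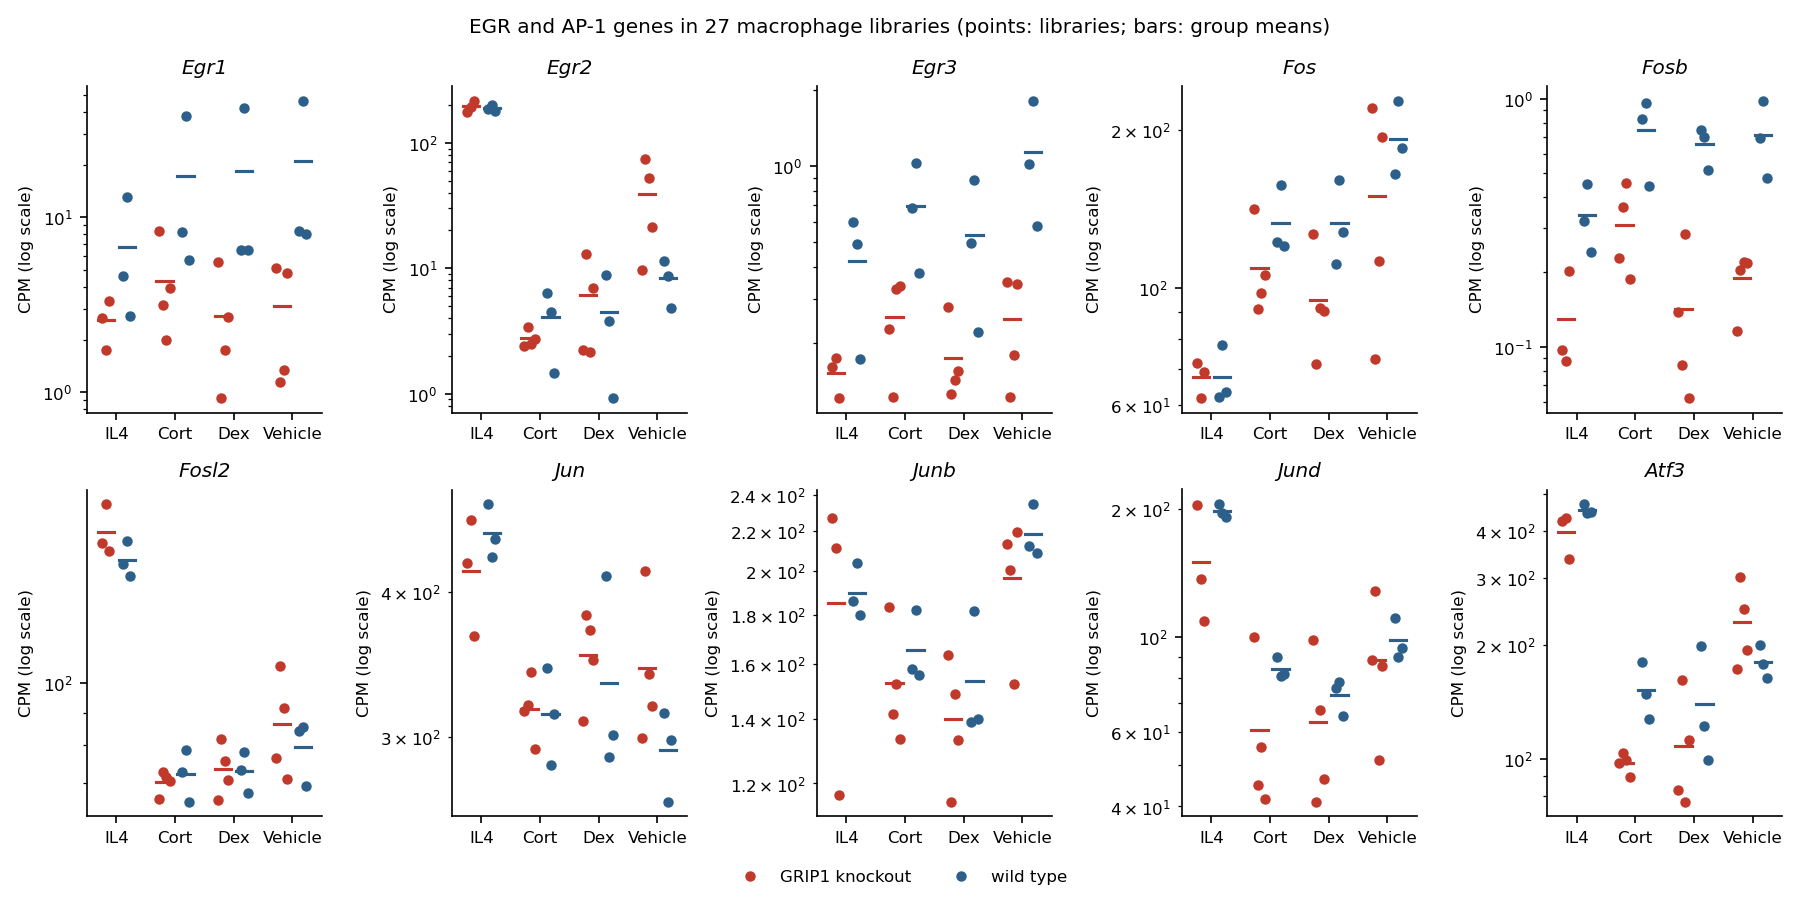
Level of each gene in every library, in CPM on a log axis, with KO libraries in red left of WT libraries in blue and bars at group means. Egr2 is at 177 to 216 CPM in KO and 180 to 201 CPM in WT IL4 libraries, Fos is at 61.7 to 72.1 CPM in KO and 62.0 to 78.0 CPM in WT IL4 libraries, and Egr1 is high in the WT libraries numbered 2 (13.1 to 46.3 CPM).

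By GENCODE vM21 (GRCm38), Egr1 lies on chromosome 18 at 34859823 to 34864984 (plus strand), Egr2 on chromosome 10 at 67535475 to 67542188 (plus) and Egr3 on chromosome 14 at 70077203 to 70082614 (plus). Fos lies on chromosome 12 at 85473890 to 85477273 (plus), Fosb on chromosome 7 at 19302696 to 19310051 (minus) and Fosl2 on chromosome 5 at 32135801 to 32157842 (plus). Jun (chromosome 4 at 95049034 to 95052222, minus), Junb (chromosome 8 at 84974484 to 84978718, minus), Jund (chromosome 8 at 70698949 to 70700616, plus) and Atf3 (chromosome 1 at 191170296 to 191218039, minus) each overlap an annotated neighbour. For Jun it is the antisense Junos, for Junb the opposite-strand peroxiredoxin gene Prdx2, for Jund the antisense Gm11175 and for Atf3 the small RNA gene Gm24748. The libraries were directional, but no source used here states how strand was handled when reads were counted, so reads of these pairs may be shared. Junos had 18.4, 18.5 and 25.6 CPM in KO IL4 libraries, against 16.7 to 18.7 CPM in WT IL4 and 4.13 to 5.51 CPM in WT vehicle libraries. Gm11175 stayed between 0.738 and 2.03 CPM and Prdx2 between 173 and 263 CPM in all libraries.

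The first question was how the factors stood after 24 h of IL4. In KO macrophages 4 of the 10 changed: Egr2, Fosl2 and Atf3 rose and Fos fell. That is 3 of 10 higher where 14.5% of all tested genes were higher, and 1 of 10 lower where 12% were. The median log2 fold change was 0.10 over the members and 0.01 over all tested genes. In WT macrophages 8 of 10 changed: Egr2, Fosl2, Jun, Jund and Atf3 rose, and Fos, Egr3 and Fosb fell. Here 14.8% of all genes were higher and 15.3% lower, with medians of 0.21 over the members and -0.01 over all genes. All adjusted p-values are from edgeR's quasi-likelihood test with Benjamini-Hochberg adjustment over the 14589 genes, and a gene is said to have changed where that p is under 0.05.

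Egr2, the EGR factor named above, had the largest IL4 response of the members. It had 177, 194 and 216 CPM in KO IL4 libraries, against 9.60, 74.2, 52.0 and 21.2 CPM in KO vehicle libraries. WT cells had 186, 201 and 180 CPM with IL4, against 11.5, 8.64 and 4.85 CPM with vehicle. The IL4 levels of the genotypes overlapped, and no IL4 library came near a vehicle library in either genotype. The vehicle levels were spread widely in KO cells, where the libraries numbered 2 and 3, which are the ones high in Arg1, were highest. Egr2 rose 4.98-fold in KO cells (log2 2.32 ± 0.55 SE, adjusted p = 0.00421) and 22.7-fold in WT cells (log2 4.50 ± 0.64, adjusted p = 4.04e-05). Without the libraries high in Arg1 the KO log2 fold change was 3.64 (adjusted p = 4.93e-05). The interaction, KO minus WT, was -2.19 ± 0.85 on the log2 scale and did not pass (adjusted p = 0.443).

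The other EGR genes were low and did not share that direction. Egr1, the prototype growth-factor-induced EGR gene, had 2.65, 1.75 and 3.32 CPM in KO IL4 libraries, against 5.11, 1.15, 1.34 and 4.83 CPM in KO vehicle libraries. WT cells had 4.64, 13.1 and 2.73 CPM with IL4, against 8.39, 46.3 and 7.99 CPM with vehicle. In both genotypes the groups overlapped, and library 2 was the highest WT library of both groups. Egr1 had a log2 fold change of -0.24 ± 0.97 in KO cells (adjusted p = 0.888) and -1.63 ± 0.90 in WT cells (adjusted p = 0.201). In WT cells a block for replicate number gave -1.47 with an adjusted p of 0.000112, while without vehicle library 2 the Egr1 value was -0.27 (adjusted p = 0.882). Egr3, an EGR gene best known from lymphocytes and muscle spindles, fell in WT cells, with 0.600, 0.493 and 0.173 CPM under IL4 against 1.02, 1.81 and 0.581 CPM with vehicle (log2 -1.45 ± 0.49, adjusted p = 0.0242). One IL4 library lay within the vehicle range, so the WT groups overlapped, and the call was lost without IL4 library 3 (adjusted p = 0.140) or vehicle library 2 (0.214). In KO cells Egr3 stayed at or below 0.349 CPM in both groups (log2 -0.67 ± 0.65, adjusted p = 0.475).

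Among FOS-type genes, IL4 moved Fos and Fosl2 in opposite directions. Fos, the labile founding subunit, had 72.1, 61.7 and 69.3 CPM in KO IL4 libraries, against 220, 73.1, 112 and 194 CPM in KO vehicle libraries. WT cells had 62.0, 78.0 and 63.3 CPM with IL4, against 165, 227 and 185 CPM with vehicle. Every IL4 library was below every vehicle library of its genotype, narrowly in KO cells, where vehicle library 2, high in Arg1, was the lowest. Fos fell by 1.15 ± 0.27 on the log2 scale in KO cells (adjusted p = 0.00387) and was 2.83-fold lower in WT cells, with an SE of 0.29 on the log2 scale (adjusted p = 0.000376). In a fit of the KO IL4 and vehicle groups alone the Fos call was lost (adjusted p = 0.0503), and without the libraries high in Arg1 the KO value was -1.63.

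Fosl2 (Fra-2), a longer-lived FOS-type subunit without the strong transactivation domain of Fos, had 165, 190 and 160 CPM in KO IL4 libraries, against 76.5, 106, 91.6 and 71.1 CPM in KO vehicle libraries. WT cells had 153, 167 and 146 CPM with IL4, against 84.2, 85.5 and 69.2 CPM with vehicle. No IL4 library overlapped a vehicle library. Fosl2 rose by a log2 of 0.99 ± 0.11 in KO cells (adjusted p = 5.02e-07) and 0.96 ± 0.12 in WT cells, 1.95-fold (adjusted p = 8.32e-07). Fosb, a FOS-type gene known for persistent splice forms in neurons, was near the lower limit of the data. It had 0.0971, 0.0873 and 0.203 CPM in KO IL4 libraries, against 0.116, 0.205, 0.220 and 0.218 CPM in KO vehicle libraries (log2 -0.59 ± 0.55, adjusted p = 0.453). It fell in WT cells, with 0.320, 0.455 and 0.242 CPM under IL4 against 0.693, 0.981 and 0.478 CPM with vehicle (log2 -1.08 ± 0.41, adjusted p = 0.0441). The WT groups did not overlap, while the KO groups did. Without any 1 of WT IL4 libraries 1 and 3 or vehicle libraries 1 and 2 the WT call for Fosb was lost (adjusted p from 0.0652 to 0.232).

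The JUN-type genes, which encode the partners of every FOS-type protein, divided in WT cells into Jun and Jund, which rose, and Junb, which did not pass. Jun, a substrate of JNK, had 423, 461 and 367 CPM in KO IL4 libraries, against 300, 417, 340 and 319 CPM in KO vehicle libraries. WT cells had 476, 429 and 445 CPM with IL4, against 315, 264 and 298 CPM with vehicle, without overlap. Jun rose 1.54-fold in WT cells (log2 0.62 ± 0.13, adjusted p = 0.000469). In KO cells, where the groups overlapped, the log2 fold change was 0.28 ± 0.12 (adjusted p = 0.0820), 0.30 under a block for replicate number (adjusted p = 0.00366) and 0.42 without the libraries high in Arg1 (adjusted p = 0.00537). Without KO vehicle library 2 alone the Jun value was 0.39 (adjusted p = 0.0116). The antisense Junos, which shares the locus, was also higher in IL4 than in vehicle libraries of WT cells, at the levels given with the gene positions.

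Jund, the constitutively expressed JUN protein of many cells, had 204, 137 and 109 CPM in KO IL4 libraries, against 88.3, 128, 51.5 and 85.6 CPM in KO vehicle libraries. WT cells had 205, 196 and 192 CPM with IL4, against 111, 90.0 and 94.5 CPM with vehicle. The WT groups were far apart and the KO groups overlapped. Jund had a log2 fold change of 0.77 ± 0.31 in KO cells (adjusted p = 0.0672) and rose 2.01-fold in WT cells (log2 1.01 ± 0.33, adjusted p = 0.0241). The WT call for Jund was lost without IL4 library 1 (adjusted p = 0.0571), vehicle library 2 (0.0817) or vehicle library 3 (0.0749), and without KO vehicle library 2 the KO value passed (1.01, adjusted p = 0.0207). Junb, a JUN-type protein that is a weaker activator than Jun on many promoters, had 227, 211 and 117 CPM in KO IL4 libraries, against 213, 200, 152 and 220 CPM in KO vehicle libraries (log2 -0.08 ± 0.17, adjusted p = 0.767). It had 186, 204 and 180 CPM in WT IL4 libraries, against 212, 234 and 209 CPM in WT vehicle libraries. The WT difference of -0.20 ± 0.18 did not pass (adjusted p = 0.458), with a 95% interval from -0.58 to 0.17, although no IL4 library reached the lowest vehicle library.

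Atf3, the member that pairs with JUN proteins or with itself, was the most abundant member per length under IL4. It had 423, 432 and 337 CPM in KO IL4 libraries, against 172, 302, 248 and 194 CPM in KO vehicle libraries. WT cells had 469, 445 and 447 CPM with IL4, against 200, 178 and 164 CPM with vehicle. Both genotypes were without overlap, and the WT IL4 libraries were close together. Atf3 rose by a log2 of 0.80 ± 0.23 in KO cells (adjusted p = 0.0121; 1.10 without the libraries high in Arg1) and 2.51-fold in WT cells (log2 1.33 ± 0.24, adjusted p = 0.000240). The IL4 interaction for Atf3, KO minus WT, was -0.53 and did not pass.

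**Figure D2:**
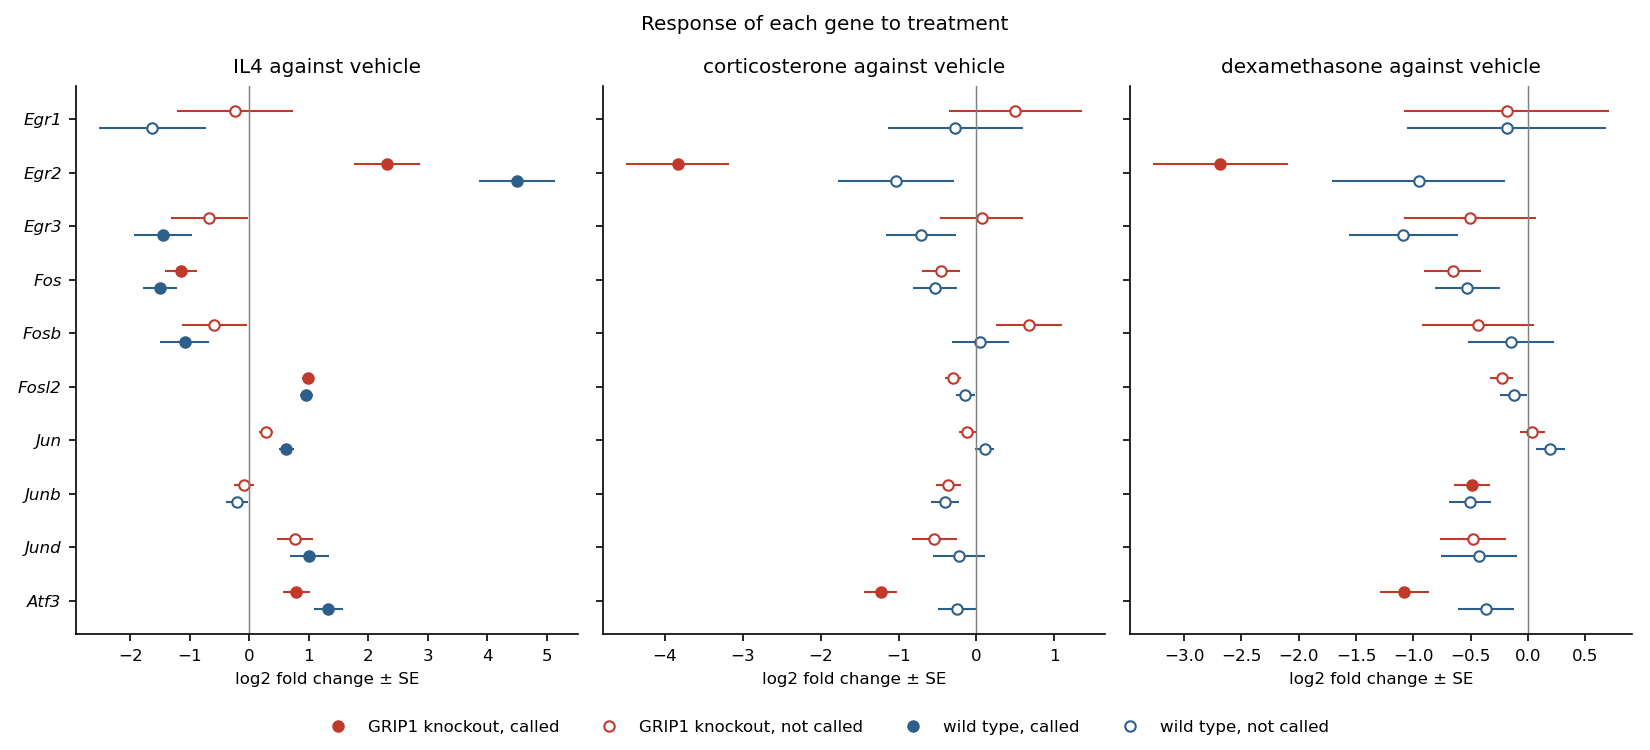
Log2 fold change against vehicle with its SE for IL4, corticosterone and dexamethasone, KO beside WT, with filled points where the adjusted p was under 0.05. Under IL4, Egr2 stands highest (2.32 in KO, 4.50 in WT) and Fos lies below 0, while under the glucocorticoids the called changes are in KO cells.

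Set together per length, IL4 libraries held another mix of subunits than vehicle libraries. Of the summed CPM per kb of Fos, Fosb and Fosl2, Fosl2 made up 38.1 ± 3.97% in KO IL4 libraries (SD, n = 3) and 14.6 ± 8.62% in KO vehicle libraries (n = 4). In WT cells its share was 35.8 ± 1.67% with IL4 and 9.25 ± 1.55% with vehicle (n = 3 each). Of the EGR sum, Egr2 made up 99.0% in KO IL4 and 87.7 ± 13.6% in KO vehicle libraries, and 97.3 ± 1.90% in WT IL4 and 41.2 ± 21.3% in WT vehicle libraries. Of the JUN-type sum, Jund made up 29.6 ± 4.52% in KO IL4 and 21.0 ± 4.52% in KO vehicle libraries, and 34.6 ± 0.180% in WT IL4 and 24.0 ± 1.65% in WT vehicle libraries. These are shares of transcript and carry no test. They do not measure protein or dimers.

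**Figure D3:**
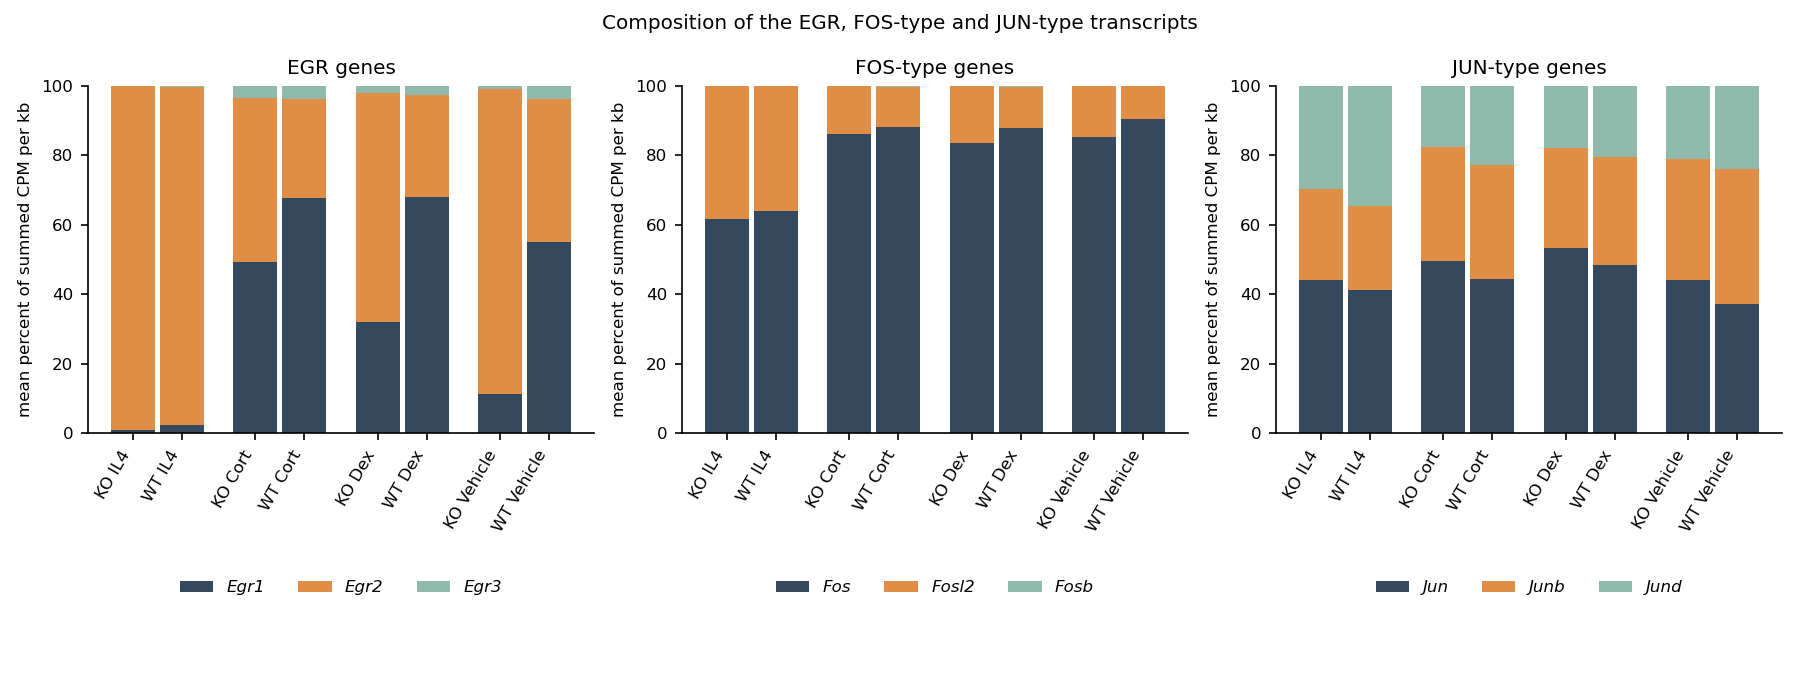
Mean share of each gene in the summed CPM per kb of the EGR, FOS-type and JUN-type genes, in percent, by group. Fosl2 takes 38.1% of the FOS-type sum in KO IL4 and 35.8% in WT IL4 libraries, and Egr2 nearly all of the EGR sum there.

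The second question was what the glucocorticoids did to the same genes. Corticosterone (500 nM) and dexamethasone (100 nM) were given at different doses, so their values stand side by side without a test between them. Both are compared with the same vehicle libraries, as is IL4, so their results are not independent. In KO cells Egr2 and Atf3 fell under both, and Junb fell under dexamethasone. Of the members, 0 of 10 rose and 2 of 10 fell under corticosterone, where 6.01% of all genes rose and 6.07% fell, and 0 of 10 rose and 3 of 10 fell under dexamethasone, where 9.1% rose and 9.29% fell. In WT cells no member passed edgeR's test under either hormone, where 5.94% of all genes were called under corticosterone and 13.7% under dexamethasone. At an unadjusted p under 0.05, 1 member (Junb) stood out for corticosterone and 2 (Egr3 and Junb) for dexamethasone, and DESeq2 called 0 members and 1 member. The WT libraries paired by replicate number, and under a block for that number Fos, Junb and Egr3 passed with dexamethasone. The absence of WT calls thus depends on the fit. The members' median log2 fold change was -0.33 under corticosterone and -0.48 under dexamethasone in KO cells, and -0.26 and -0.40 in WT cells, with all-gene medians within 0.01 of 0.

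Egr2 had 2.39, 3.39, 2.51 and 2.74 CPM in KO corticosterone libraries and 2.22, 13.1, 2.14 and 6.99 CPM in KO dexamethasone libraries, against 9.60 to 74.2 CPM in KO vehicle libraries. It was 14.3-fold lower with corticosterone (log2 -3.84 ± 0.66, adjusted p = 0.000389) and 6.42-fold lower with dexamethasone (log2 -2.68 ± 0.59, adjusted p = 0.00273). Corticosterone libraries did not overlap vehicle libraries, while dexamethasone library 2, high in Arg1, reached into the vehicle range. Without the libraries high in Arg1 the log2 values were -2.51 (adjusted p = 0.00442) and -1.99 (adjusted p = 0.0172), and in a fit of the KO dexamethasone and vehicle groups alone the dexamethasone call was lost (adjusted p = 0.0703). WT cells had 6.31, 4.48 and 1.48 CPM with corticosterone and 8.76, 3.82 and 0.924 CPM with dexamethasone, against 11.5, 8.64 and 4.85 CPM with vehicle. The WT log2 fold changes were -1.03 (adjusted p = 0.576) and -0.95 (adjusted p = 0.501), and both hormone groups overlapped vehicle. Within each of the 3 same-numbered WT sets, Egr2 was lower with either hormone than with vehicle, and under a block for replicate number the values were -1.05 (adjusted p = 0.393) and -0.997 (adjusted p = 0.356). The interactions, KO minus WT, were -2.80 ± 1.00 for corticosterone (95% interval -4.88 to -0.72, adjusted p = 0.457) and -1.73 ± 0.96 for dexamethasone (adjusted p = 0.983).

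Atf3 fell in KO cells, with 97.8, 104, 99.1 and 89.6 CPM under corticosterone and 82.7, 162, 77.2 and 112 CPM under dexamethasone, against 172, 302, 248 and 194 CPM with vehicle. No hormone library reached the vehicle range, and dexamethasone library 2 was again the highest of its group. The log2 values were -1.23 ± 0.21 for corticosterone, 2.35-fold lower (adjusted p = 0.000416), and -1.08 ± 0.21 for dexamethasone (adjusted p = 0.000893), and -0.92 and -1.02 without the libraries high in Arg1. WT cells had 180, 148 and 128 CPM with corticosterone and 198, 122 and 99.5 CPM with dexamethasone, against 200, 178 and 164 CPM with vehicle. These groups overlapped, with log2 values of -0.25 (adjusted p = 0.731) and -0.37 ± 0.25 (adjusted p = 0.394). In the fit without the 4 libraries high in Arg1, WT dexamethasone 1 among them, the WT dexamethasone value was -0.72 (adjusted p = 0.00348). When 1 library of these WT groups was left out at a time, Atf3 did not pass. Its log2 values then ran from -0.72 to -0.18, with adjusted p from 0.0636 to 0.784.

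Fos lay below vehicle in every WT hormone library without passing the test. WT cells had 122, 157 and 120 CPM with corticosterone and 111, 161 and 128 CPM with dexamethasone, against 165, 227 and 185 CPM with vehicle. The log2 fold change was -0.53 ± 0.28 for corticosterone (adjusted p = 0.388) and -0.53 ± 0.28 for dexamethasone (adjusted p = 0.267), and the dexamethasone value passed when replicate number was a block (-0.53, adjusted p = 0.0420). KO cells had 141, 91.4, 97.7 and 106 CPM with corticosterone and 127, 71.8, 91.6 and 90.2 CPM with dexamethasone, against 220, 73.1, 112 and 194 CPM with vehicle. The KO groups overlapped, through vehicle library 2. The KO log2 values were -0.46 (adjusted p = 0.280) and -0.66 (adjusted p = 0.0710), and without the libraries high in Arg1 they were -0.94 (adjusted p = 0.00156) and -1.02 (adjusted p = 0.000733). Leaving out KO vehicle library 2 alone made Fos pass with corticosterone (adjusted p = 0.0380) and dexamethasone (0.00459), and the dexamethasone value also passed without KO vehicle library 3 (0.0480) or KO dexamethasone library 1 (0.0375).

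Junb had 183, 142, 152 and 133 CPM in KO corticosterone and 163, 115, 149 and 133 CPM in KO dexamethasone libraries, against 213, 200, 152 and 220 CPM in KO vehicle libraries. WT cells had 158, 182 and 156 CPM with corticosterone and 139, 181 and 140 CPM with dexamethasone, against 212, 234 and 209 CPM with vehicle. The WT hormone libraries were all below the WT vehicle libraries, and the KO groups overlapped. Junb fell with dexamethasone in KO cells (log2 -0.49 ± 0.16, adjusted p = 0.0342), a call that was lost in 6 of 8 fits that left out 1 library (adjusted p up to 0.0969), without the low-count filter (adjusted p = 0.113) and without the libraries high in Arg1 (adjusted p = 0.0741). The KO corticosterone value was -0.36 (adjusted p = 0.161). In WT cells the values were -0.40 ± 0.18 for corticosterone (adjusted p = 0.265) and -0.51 ± 0.18 for dexamethasone (adjusted p = 0.0705), and the dexamethasone value passed under a block for replicate number (-0.52, adjusted p = 0.0265) and without WT dexamethasone library 2 (-0.66, adjusted p = 0.0456).

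Among the remaining members no hormone change passed the test. Fosl2 had 66.1 to 72.6 CPM in KO corticosterone libraries, against 71.1 to 106 CPM in KO vehicle libraries (log2 -0.30 ± 0.10, adjusted p = 0.0544), and passed under a block for replicate number (-0.29, adjusted p = 0.00109) and without KO vehicle library 1 (adjusted p = 0.0315) or 4 (0.0120). With dexamethasone the KO value for Fosl2 was -0.23 (adjusted p = 0.121), and it passed without KO vehicle library 4 (-0.31, adjusted p = 0.0294). Egr3 in WT cells with dexamethasone (log2 -1.09 ± 0.48, adjusted p = 0.143) also passed with that block (-1.09, adjusted p = 0.00364), but without WT vehicle library 2 the Egr3 value was -0.57 (adjusted p = 0.575). Jun stayed within a log2 of 0.19 of vehicle in both genotypes and with both hormones. In WT cells Jund was lower in every hormone library, at 81.0 to 89.7 CPM with corticosterone and 65.3 to 78.5 CPM with dexamethasone, against 90.0 to 111 CPM with vehicle, but did not pass (log2 -0.22 and -0.43). Its KO log2 values were -0.54 and -0.48, and without KO corticosterone library 1 the corticosterone value for Jund passed (-0.897, adjusted p = 0.0422). Egr1 and Fosb did not pass with either hormone in either genotype. The largest of these values was 0.68 for Fosb with corticosterone in KO cells (adjusted p = 0.355).

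IL4 and glucocorticoids are both described as driving macrophages away from an inflammatory state, and set against each other in WT cells they left the members in unlike states. Egr2, Fosl2, Jun, Jund and Atf3 were higher with IL4 than with corticosterone, and Fos and Fosb were lower, which is 5 of 10 higher where 14.8% of all genes were and 2 of 10 lower where 16.9% were. Against dexamethasone the same 5 were higher (15% of all genes were) and Fos alone was lower (16.7% of all genes were). Egr2 was higher by a log2 of 5.54 against corticosterone (adjusted p = 7.48e-06) and 5.46 against dexamethasone (adjusted p = 8.97e-06). Atf3 was higher by 1.58 (adjusted p = 3.52e-05) and 1.70 (adjusted p = 1.42e-05), and Jund by 1.23 (adjusted p = 0.00676) and 1.43 (adjusted p = 0.00208). Fosl2 was higher by 1.10 (adjusted p = 9.77e-08) and 1.09 (adjusted p = 1.00e-07), and Jun by 0.52 (adjusted p = 0.00253) and 0.43 (adjusted p = 0.0104). Fos was lower with IL4, at -0.97 in both contrasts (adjusted p = 0.0125 and 0.0123). Junb did not pass in either, at 0.20 and 0.31. The Fos, Fosb and Jun calls were the fragile ones. Leaving out 1 library ended that of Fos against corticosterone (IL4 library 1 or 3, or corticosterone library 2; adjusted p from 0.0511 to 0.0587) and against dexamethasone (IL4 library 1 or dexamethasone library 2; 0.0537 and 0.0725). The same held for Fosb against corticosterone (IL4 library 1 or 3, or corticosterone library 1 or 2; adjusted p from 0.0821 to 0.160) and for Jun against dexamethasone (dexamethasone library 2 or 3; 0.0674 and 0.0578). Egr1 did not pass (log2 -1.35 and -1.44). Under a block for replicate number Egr1 passed in both contrasts (adjusted p = 0.000801 and 0.000677), but without corticosterone library 2 its value was -0.04 (adjusted p = 0.983) and without dexamethasone library 2 it was 0.076 (adjusted p = 0.970). Fosb passed against dexamethasone under that block (adjusted p = 0.0176). Both contrasts use the same IL4 libraries.

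The third question was whether the members differed between genotypes. With vehicle, Egr1, Egr3 and Fosb were lower and Egr2 was higher in KO cells: 1 of 10 higher where 8.47% of all genes were, and 3 of 10 lower where 10.3% were. With IL4 no member passed edgeR's test, where 12.4% of all genes did; 2 members (Egr3 and Fosb) had an unadjusted p under 0.05 and DESeq2 called 0. With corticosterone 0 of 10 were higher (5.46% of all genes were) and Fosb alone was lower (8.95% were). With dexamethasone 0 of 10 were higher (6.7% were), and Egr1, Egr3 and Fosb were lower (10.5% were). The members' median log2 fold change was -0.15 under IL4, -0.52 under corticosterone, -0.29 under dexamethasone and -0.16 with vehicle, against 0.02, 0.01, 0.00 and 0.02 over all genes. Egr3 and Fosb had the lowest counts of the members, but Egr1 had the largest SE in each treatment (0.86 to 1.00 on the log2 scale). With vehicle the SE was 0.87 for Egr1, 0.48 for Egr3 and 0.40 for Fosb.

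Fosb had 0.116, 0.205, 0.220 and 0.218 CPM in KO vehicle libraries, against 0.693, 0.981 and 0.478 CPM in WT vehicle libraries (log2 -1.87 ± 0.40, adjusted p = 0.00121). With dexamethasone it had 0.139, 0.0843, 0.285 and 0.0622 CPM in KO libraries, against 0.746, 0.699 and 0.517 CPM in WT libraries (log2 -2.16 ± 0.46, adjusted p = 0.00114). With corticosterone it had 0.228, 0.367, 0.457 and 0.188 CPM in KO libraries, against 0.832, 0.960 and 0.446 CPM in WT libraries (log2 -1.24 ± 0.38, adjusted p = 0.0259). The genotypes did not overlap with vehicle, dexamethasone or IL4 and overlapped narrowly with corticosterone. The IL4 value was -1.37 (adjusted p = 0.0897). Egr3 had 0.349, 0.123, 0.180 and 0.343 CPM in KO vehicle libraries, against 1.02, 1.81 and 0.581 CPM in WT vehicle libraries (log2 -2.20 ± 0.48, adjusted p = 0.00130), without overlap. It was also lower with dexamethasone (log2 -1.62 ± 0.58, adjusted p = 0.0454), where the groups overlapped, and was -1.42 with corticosterone (adjusted p = 0.0540, and 0.0268 without WT corticosterone library 3) and -1.42 with IL4 (adjusted p = 0.143).

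Egr1 had 5.11, 1.15, 1.34 and 4.83 CPM in KO vehicle libraries, against 8.39, 46.3 and 7.99 CPM in WT vehicle libraries (log2 -2.77 ± 0.87, adjusted p = 0.0292). With dexamethasone it had 5.54, 0.927, 1.75 and 2.705 CPM in KO libraries, against 6.52, 41.9 and 6.54 CPM in WT libraries (log2 -2.77 ± 0.90, adjusted p = 0.0365). The genotypes did not overlap, but in each treatment 1 WT library, number 2, was far above the other WT libraries. Leaving out any 1 of KO vehicle libraries 2 and 3, of KO dexamethasone libraries 2, 3 and 4, or of WT libraries 2 ended the Egr1 call of that treatment (adjusted p from 0.0815 to 0.444). Without the 4 WT libraries numbered 2 the Egr1 log2 values were -1.41 (adjusted p = 0.152) and -1.27 (adjusted p = 0.238). Without the libraries high in Arg1 they were -2.08 (adjusted p = 0.235) and -2.90 (adjusted p = 0.0834). Without the low-count filter the Egr1 adjusted p was 0.0694 with vehicle and 0.0870 with dexamethasone. Fosb kept its calls without the WT libraries numbered 2 with vehicle (log2 -1.57, adjusted p = 0.0235) and dexamethasone (-2.10, adjusted p = 0.00741), not with corticosterone (-1.01, adjusted p = 0.173). Egr3 kept its call with vehicle (-1.68, adjusted p = 0.0200) and lost it with dexamethasone (-0.999, adjusted p = 0.333). The dexamethasone call of Egr3 was also lost without KO library 2, 3 or 4 or WT library 1 (adjusted p from 0.0898 to 0.102), and without the libraries high in Arg1 Egr3 lost both its vehicle call (-1.72, adjusted p = 0.0593) and its dexamethasone call (-1.55, adjusted p = 0.147). Fosb kept both without them (-2.05, adjusted p = 0.0173, and -1.90, adjusted p = 0.0290). The corticosterone call of Fosb was lost without KO library 1 or 4 or WT library 1 or 2 (adjusted p from 0.0743 to 0.148).

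Stromal transcripts moved with the same genotype difference. The summed CPM of the 7 stromal genes was 10.7 to 42.9 in KO libraries, against 152 to 789 in WT libraries, and neutrophil genes were likewise lower in KO libraries. Within WT cells the stromal sum was highest in the libraries numbered 1 (741 CPM with vehicle), followed by those numbered 2 (258 CPM) and 3 (197 CPM). Egr1 was highest in WT library 2 of each treatment. Egr3 was highest in WT library 1 with IL4 and in library 2 with the other treatments. Fosb was highest in WT library 1 with dexamethasone and in library 2 with the other treatments. None of the 7 stromal genes was at 0 in all libraries. The part of stromal or neutrophil transcripts in the lower Egr1, Egr3 and Fosb of KO libraries was not tested.

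**Figure D4:**
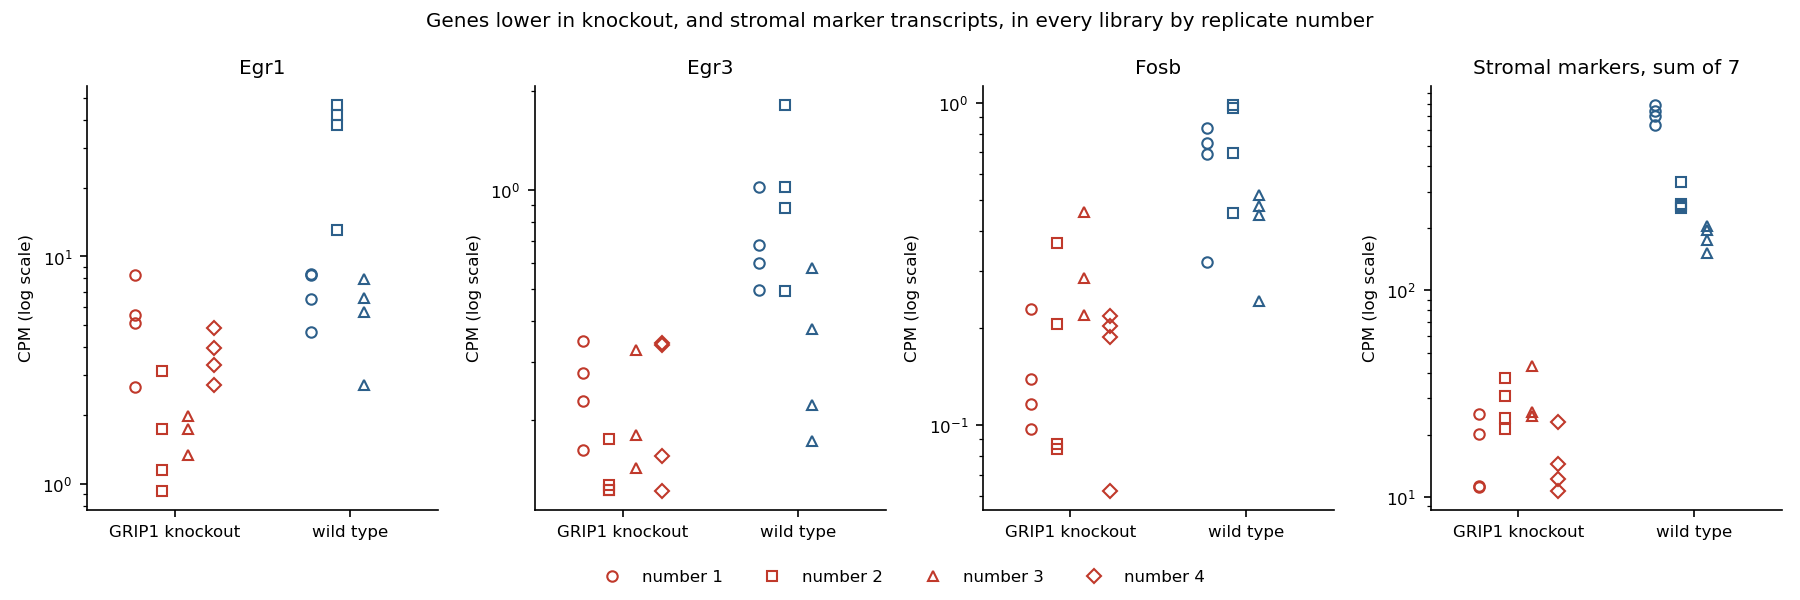
Egr1, Egr3, Fosb and the sum of 7 stromal genes in CPM on a log axis, by replicate number, KO left of WT. KO libraries lie lower for the stromal sum (10.7 to 42.9 CPM in KO, 152 to 789 CPM in WT), and Egr1 is highest in the WT libraries numbered 2.

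Egr2 was the only member higher in KO cells with vehicle, at 9.60, 74.2, 52.0 and 21.2 CPM in KO libraries against 11.5, 8.64 and 4.85 CPM in WT libraries (log2 2.24 ± 0.61, adjusted p = 0.0164). The groups overlapped at KO library 1, and the highest levels were in libraries 2 and 3, those high in Arg1. Without the libraries high in Arg1, which left KO vehicle libraries 1 and 4, the value was 0.90 (adjusted p = 0.275) and the call was lost. Without the WT libraries numbered 2 the value was 2.27 (adjusted p = 0.0923). Leaving out KO vehicle library 2 (adjusted p = 0.0636), WT vehicle library 2 (0.0536) or WT vehicle library 3 (0.0742) alone also ended the call. Under IL4 the genotypes were close (log2 0.05, adjusted p = 0.968). In all 4 libraries high in Arg1, Egr2 and Atf3 were the highest and Fos and Egr1 the lowest of their group of the same genotype and treatment. For Egr1 in WT dexamethasone 1 the margin was slight, at 6.519 CPM against 6.54 CPM in library 3. WT library 1 was also highest in Egr2 and Atf3 with vehicle (11.5 and 200 CPM) and corticosterone (6.31 and 180 CPM). Arg1 was at 3.83 and 2.12 CPM in those libraries.

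For the other abundant members no genotype difference passed in the main fit. Atf3 was lower in every KO than in every WT library with corticosterone (89.6 to 104 CPM in KO, 128 to 180 CPM in WT; log2 -0.64 ± 0.23, adjusted p = 0.0670) and with IL4 (337 to 432 CPM in KO, 445 to 469 CPM in WT; log2 -0.19, adjusted p = 0.651). In a fit of the corticosterone groups alone the Atf3 difference passed (adjusted p = 0.00334), and with dexamethasone it passed without KO library 2 (-0.62, adjusted p = 0.0484). Fos with vehicle was -0.36 (adjusted p = 0.414), and Fosl2, Jun, Junb and Jund with vehicle were 0.12, 0.23, -0.16 and -0.16. The largest values of these genes in the other treatments were -0.49 for Fos with dexamethasone (adjusted p = 0.240) and -0.48 for Jund with corticosterone (adjusted p = 0.368). The interaction tests, which ask whether a treatment response differed between genotypes, called 0 of 10 members for IL4 (0.0274% of all genes), for corticosterone (0.0206%) and for dexamethasone (0.185%). At an unadjusted p under 0.05 there were 1 member for IL4 (Egr2), 2 for corticosterone (Egr2 and Atf3) and 1 for dexamethasone (Atf3), and DESeq2 called 0 in each. The Atf3 interaction was -0.98 ± 0.32 for corticosterone (adjusted p = 0.358).

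**Figure D5:**
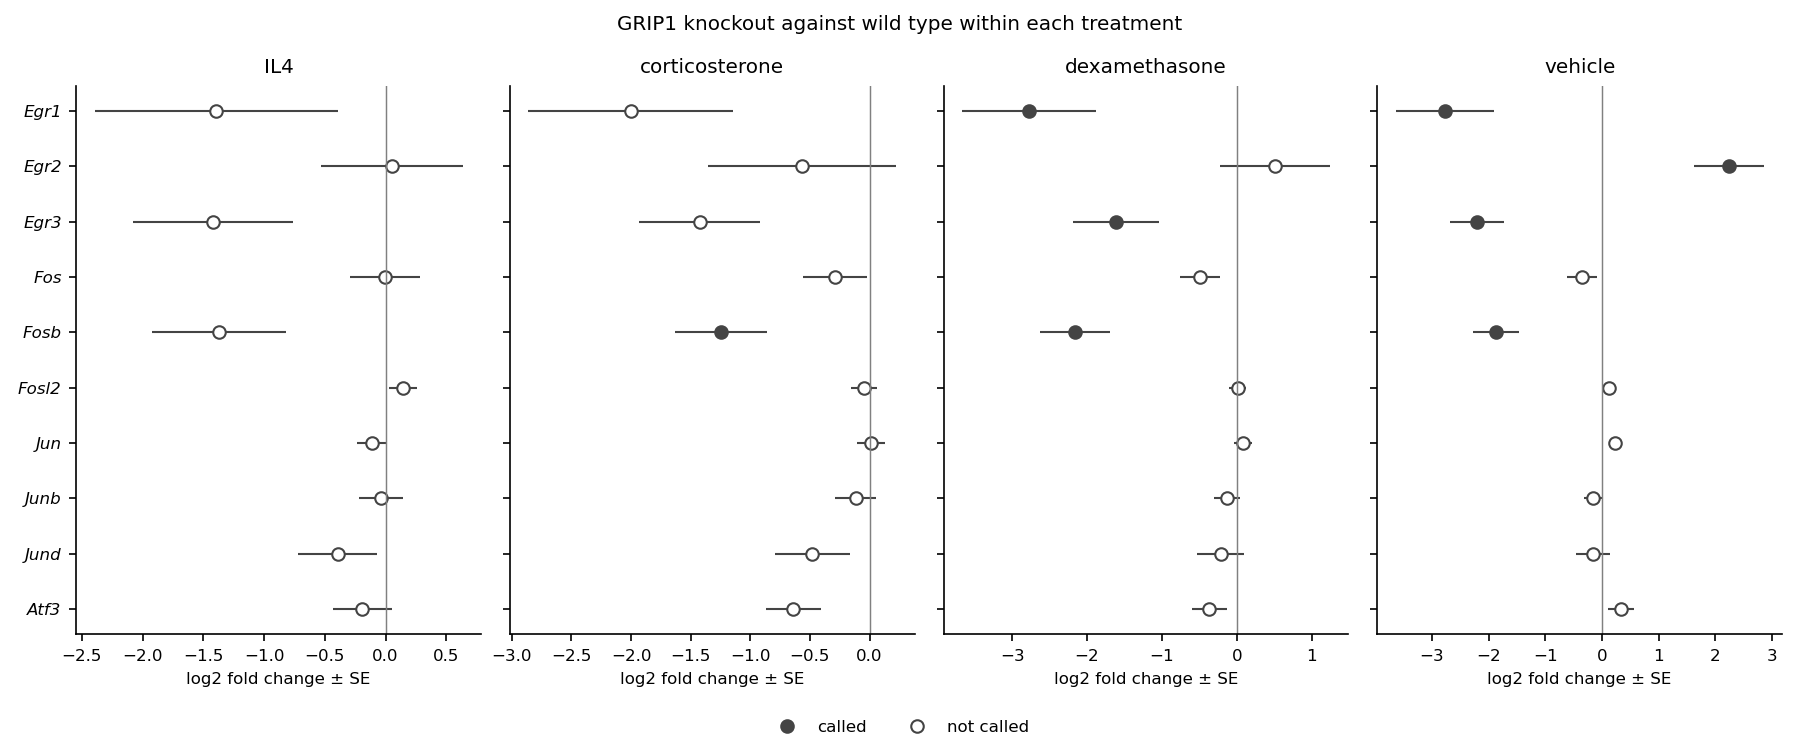
Log2 fold change, KO over WT, with its SE under IL4, corticosterone, dexamethasone and vehicle, with filled points where the adjusted p was under 0.05. Fosb lies below 0 in each treatment (-1.37 with IL4, -1.24 with corticosterone, -2.16 with dexamethasone, -1.87 with vehicle). The JUN-type genes lie between -0.48 (Jund with corticosterone) and 0.23 (Jun with vehicle), none called.

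Relatives of the members that also form leucine-zipper dimers moved in both directions. Of 16 other AP-1 and bZIP genes, 5 rose and 3 fell with IL4 in KO cells and 4 rose and 4 fell in WT cells. Over all tested genes 14.5% rose and 12% fell in KO cells, and 14.8% and 15.3% in WT cells. Batf3, a BATF factor that dimerizes with JUN proteins, had 31.1, 25.8 and 19.5 CPM in KO IL4 libraries, against 1.94, 7.87, 4.33 and 1.78 CPM in KO vehicle libraries (log2 2.69, adjusted p = 1.09e-05). In WT cells it had 21.3, 30.5 and 31.5 CPM with IL4, against 3.25, 2.39 and 2.49 CPM with vehicle (log2 3.36, adjusted p = 1.76e-06). Like Egr2 and Atf3, Batf3 fell in KO cells with corticosterone (log2 -2.58, adjusted p = 0.000274) and dexamethasone (-2.13, adjusted p = 0.000732), against the same vehicle libraries. Of these, libraries 2 and 3, high in Arg1, had the most Batf3. In WT cells Batf3 averaged 1.80 CPM with corticosterone and 1.99 CPM with dexamethasone, against 2.71 CPM with vehicle. Maf, a large MAF factor of macrophage identity, fell with IL4 (-0.65 in KO, -1.004 in WT).

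Jdp2, a repressor that dimerizes with JUN proteins, moved opposite ways with IL4 and glucocorticoids. Its mean level in KO cells was 19.1 CPM with IL4, 97.9 CPM with corticosterone and 106 CPM with dexamethasone, against 30.2 CPM with vehicle. In WT cells it was 22.5, 99.7 and 115 CPM in that order, against 37.99 CPM with vehicle. Jdp2 fell with IL4 (log2 -0.66 in KO, adjusted p = 5.89e-05; -0.76 in WT, adjusted p = 9.10e-06). It rose with corticosterone (1.70 in KO, adjusted p = 6.48e-12; 1.39 in WT, adjusted p = 3.01e-09) and dexamethasone (1.81 in KO, adjusted p = 8.53e-13; 1.61 in WT, adjusted p = 1.09e-10). Of the 16 genes, corticosterone raised 4 and lowered 2 in KO cells and raised 1 and lowered 0 in WT cells, and dexamethasone raised 5 and lowered 1 in KO cells and raised 4 and lowered 1 in WT cells. Over all tested genes in KO cells, corticosterone raised 6.01% and lowered 6.07%, and dexamethasone raised 9.1% and lowered 9.29%. In WT cells 5.94% and 13.7% were called in either direction. The all-gene shares of each comparison are also the background for the lists below. Between genotypes, 8.47% of all tested genes were higher and 10.3% lower in KO cells with vehicle. With corticosterone these shares were 5.46% and 8.95%, with dexamethasone 6.7% and 10.5%, and with IL4 12.4% in either direction. In KO against WT cells 2 of the 16 were higher and 3 lower with vehicle, 2 and 2 under IL4, and 1 and 2 under either hormone. The FOS-type relative Fosl1 was among the lower ones, at 0.0324 to 1.01 CPM in KO libraries against 1.59 to 9.50 CPM in WT libraries (log2 -3.35 with vehicle, adjusted p = 0.000110). The part of stromal transcripts in it was not tested.

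The EGR corepressor Nab2 rose with IL4 in WT cells (log2 0.65 ± 0.13, adjusted p = 0.000588) and fell with corticosterone (-0.82 in KO, adjusted p = 4.24e-05; -0.48 in WT, adjusted p = 0.0337) and dexamethasone (-0.98 in KO, adjusted p = 1.77e-06; -0.65 in WT, adjusted p = 0.00179). Its IL4 value in KO cells was 0.27, which did not pass. Nab1 fell with IL4 in both genotypes (-0.17 in KO, adjusted p = 0.0405; -0.47 in WT, adjusted p = 6.18e-06). Neither differed between genotypes at the threshold. Egr4 had at most 0.0613 CPM in any library and was not tested.

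Among 20 other immediate early genes, 7 rose and 3 fell with IL4 in KO cells and 8 rose and 3 fell in WT cells. The all-gene shares with IL4 were 14.5% higher and 12% lower in KO cells, and 14.8% and 15.3% in WT cells. Klf4, a Krueppel-like factor of IL4-activated macrophages, rose (log2 1.56 in KO, 2.76 in WT), and the orphan receptor gene Nr4a1 fell (-1.18 in KO, -1.53 in WT). With corticosterone 1 rose and 2 fell in KO cells and 2 rose and 0 fell in WT cells, and with dexamethasone 2 rose and 3 fell in KO cells and 4 rose and 1 fell in WT cells. The MAP kinase phosphatase gene Dusp1, a known glucocorticoid target, rose with dexamethasone in WT cells (1.05 ± 0.27, adjusted p = 0.0108). Between genotypes 2 were higher and 4 lower in KO cells with vehicle, 0 passed with IL4, 3 were lower with corticosterone and 4 with dexamethasone. Dusp1 was among the lower ones (-0.91 with vehicle, -1.32 with corticosterone, -1.40 with dexamethasone).

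Of 16 genes of the MAP kinase and serum response factor route upstream of the members, IL4 raised 4 and lowered 2 in KO cells. In WT cells it raised 3 and lowered 3. Among all tested genes 14.5% rose and 12% fell in KO cells, and 14.8% and 15.3% in WT cells. Elk3, a partner of serum response factor, fell (-0.50 in KO, -0.88 in WT). Corticosterone changed 0 in either genotype, and dexamethasone lowered 1 in KO cells (Srf, -0.33) and 2 in WT cells. In KO against WT cells 2 were higher and 3 lower with vehicle, 1 and 0 under IL4, 2 and 0 under corticosterone and 2 and 1 under dexamethasone. Of 14 feedback inhibitors of that route, IL4 raised 1 and lowered 2 in KO cells and raised 4 and lowered 7 in WT cells. Spry2 (-1.04 in KO, -1.39 in WT) and the ERK phosphatase gene Dusp6 (-0.43 in KO, -0.60 in WT) fell. Dusp6 rose with corticosterone (0.90 in KO, 0.54 in WT) and dexamethasone (0.88 in KO, 0.54 in WT). In all, corticosterone raised 2 and lowered 1 of them in KO cells and raised 1 and lowered 0 in WT cells, and dexamethasone raised 2 and lowered 3 in KO cells and raised 1 and lowered 1 in WT cells. With vehicle 1 was higher and 7 were lower in KO cells, with Spry4 at -4.30, and 3, 4 and 4 were lower with IL4, corticosterone and dexamethasone. The part of stromal transcripts in Spry4 was not tested.

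Genes reported elsewhere as AP-1 or EGR targets, of which 21 of 22 listed were tested, mostly fell where they passed the test with glucocorticoids. With corticosterone 1 rose and 8 fell in KO cells and 0 rose and 6 fell in WT cells, and with dexamethasone 1 rose and 9 fell in KO cells and 1 rose and 10 fell in WT cells. Over all tested genes 6.07% fell with corticosterone and 9.29% with dexamethasone in KO cells. In WT cells 5.94% and 13.7% were called in either direction. These 21 genes are a chosen list without a test of the list. The median log2 fold change of the listed genes was -0.54 and -0.67 in KO cells and -0.52 and -0.64 in WT cells. The adhesion receptor gene Icam1 fell with corticosterone (-0.69 in KO, -0.87 in WT) and dexamethasone (-0.97 in KO, -1.07 in WT), as did the cytokine gene Il1b (-1.69 and -1.75 in KO, -2.79 and -3.02 in WT). With IL4, 4 rose and 3 fell in KO cells and 4 rose and 6 fell in WT cells. Tnf fell (-1.05 in KO, -2.04 in WT), and the collagenase gene Mmp13 (1.32 in KO, 2.01 in WT) and the hyaluronan receptor gene Cd44 (0.68 in KO, 0.94 in WT) rose. In KO against WT cells 1 was higher and 9 lower with vehicle, 2 and 8 under IL4, 2 and 10 under corticosterone and 2 and 9 under dexamethasone. Mmp9 (-2.58 with vehicle) was among the lower ones, beside the stromal and neutrophil differences given above, whose part was not tested.

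Of 10 integrated stress response genes, the setting in which Atf3 is best known, IL4 raised 1 in KO cells and 3 in WT cells and lowered 0, with Atf5 rising in both (0.69 in KO, 1.10 in WT) and Ddit3 in WT cells (0.56). With corticosterone 2 fell in KO cells (Asns, -0.78, and Chac1, -1.03) and 0 changed in WT cells, and with dexamethasone 1 rose and 3 fell in KO cells and 2 rose in WT cells. Between genotypes 1 was higher with vehicle, 0 changed with IL4, and 2 and 4 were lower in KO cells with corticosterone and dexamethasone. Of 8 heat shock genes, IL4 raised 2 in KO cells and 1 in WT cells, with Hsph1 in both (0.74 in KO, 0.80 in WT). Corticosterone lowered 1 and dexamethasone 2 in KO cells, and 0 changed in WT cells. In KO against WT cells 3 were lower with vehicle, 2 under IL4, 4 under corticosterone and 3 under dexamethasone, Hspb1 at -4.69 with vehicle. In the comparisons with vehicle and between genotypes the all-gene median log2 fold change lay between -0.01 and 0.02. With IL4 14.5% of all tested genes rose in KO cells and 14.8% in WT cells, and the other all-gene shares are those given above.

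Across the 8 group means on the log2(CPM + 0.01) scale, and among 10087 genes with a group mean of at least 5 CPM, the genes whose pattern was most like that of Egr2 were Ksr2 (Pearson r = 0.9979), Angptl2 (0.9974), Rmi2 (0.9964) and Pecam1 (0.9963). Closest to Fos were Mapk11 (0.9914), Mcm4 (0.9894), Pou6f1 (0.9876) and Oasl2 (0.9857). Closest to Junb were Acot7 (0.9926), Stk38l (0.987), Fam83f (0.9783) and Rsad1 (0.9772). Pecam1, which also served as an endothelial marker, averaged 33.8 CPM in WT IL4 libraries and 8.16 CPM in WT vehicle libraries. The 8 points share libraries and scaling, and the coefficients are descriptions without a test.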

How the data were processed

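Per the labels' protocols, polyA RNA was made into directional libraries (NEBNext Ultra II) and sequenced as paired reads. Per the submitters' processing notes, the tools were fastp 0.23.2, STAR 2.7.0, featureCounts and edgeR 3.38.4, with genome build mm10. The authors deposited 1 table of raw counts per gene for all 27 libraries, and its whole-number counts were used as given. Strand setting and multi-mapping rules of the counting are not given in the sources used here.

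Genes were kept by edgeR's filterByExpr with a minimum count of 10, libraries were scaled by TMM, and 1 model of 8 group means was fitted with edgeR 4.0.16 (quasi-likelihood, robust) in R 4.3.3 with limma 3.58.1. Adjusted p-values are Benjamini-Hochberg over 14589 genes for each of 15 comparisons, called under 0.05, and the common biological coefficient of variation was 0.122. CPM per kb divides by merged exon length in GENCODE vM21, which held 29815 of the gene IDs and not the other 57. The fit was tested on simulated counts.

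The 10 members, the context lists and the rules for named genes (all members, the 4 most like genes of 3 members, and list members by adjusted p) were chosen with earlier results of these data known. Alternatives were RLE factors, no count filter, the edgeR 4 fit, a replicate block, only the groups compared, DESeq2 1.42.0, and leaving out libraries. Leaving out the WT libraries numbered 2 was added after seeing the data, and the libraries high in Arg1 were picked by their Arg1 levels in these data. Replicate numbers paired libraries within WT comparisons (correlations of same-numbered deviations from 0.193 to 0.713), KO IL4 against vehicle (0.115 to 0.28) and KO corticosterone against vehicle (0.112 to 0.274), by this check rather than by the labels.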

Additional observations from a re-analysis of the deposited data

Results flagged for a closer look

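Each member was tested in each KO group of 4 libraries for a single library apart from the others, which makes 30 tests. In these, Fosb in KO vehicle library 1 stood apart at 0.116 CPM, with 0.205 CPM the nearest of the other libraries. Its gap was 0.858 of the group's range, above the critical value. Chance gives about 5%, and the counts behind these values are few.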

How the results depend on the processing

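Every member called kept its direction under each alternative run. Among member results, 59 of 60 kept their side of the threshold with RLE factors, 59 of 60 in the edgeR 4 fit, 54 of 60 with DESeq2, 53 of 60 without the count filter and 43 of 58 with only the groups compared, where Egr3 or Fosb had too few counts for a value in 5 comparisons. The replicate block kept 47 of 60 and gained 13, leaving out the libraries high in Arg1 kept 27 of 37, gained 4 and lost 6, and leaving out WT libraries numbered 2 kept 31 of 44 and lost 13. One uncalled value turned its sign: Egr1 with IL4 against dexamethasone in WT ranged from -2.31 without IL4 library 2 to 0.076 without dexamethasone library 2 (adjusted p = 0.970).

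The number of members called moved as follows. IL4 against vehicle in WT gave 5 in place of 8 without WT libraries numbered 2, and IL4 against corticosterone 4 in place of 7. Corticosterone in WT gave 1 in place of 0 with only the groups compared. Dexamethasone in WT gave 3 with the replicate block, 2 with only the groups compared, 1 with DESeq2 and 1 without the libraries high in Arg1, in place of 0. Dexamethasone in KO gave 5 in place of 3 with the replicate block. KO against WT with vehicle gave 2 with only the groups compared, 1 without the libraries high in Arg1 and 2 without WT libraries numbered 2, in place of 4. Under IL4 it gave 1 in place of 0 with the replicate block. Under corticosterone it gave 2 with the block, 3 with only the groups compared, 2 with DESeq2 and 0 without WT libraries numbered 2, in place of 1. Under dexamethasone it gave 1 in place of 3 without the count filter, with only the groups compared, without the libraries high in Arg1 and without WT libraries numbered 2. Leaving out 1 library gave 5 to 8 for IL4, 0 to 0 for corticosterone and 0 to 1 for dexamethasone in WT, 4 to 6, 2 to 3 and 2 to 4 in KO, 2 to 4 for KO against WT with vehicle, 0 to 0, 0 to 2 and 1 to 3 under IL4, corticosterone and dexamethasone, 5 to 7 and 4 to 6 for IL4 against corticosterone and dexamethasone, and 0 to 0 for the interactions. The causes were not tested.

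Over all genes, the counts called moved by over 1.5 times in several settings. The replicate block gave 1790 in place of 866 for corticosterone and 3225 in place of 1996 for dexamethasone in WT, and 2974 in place of 1762 and 4056 in place of 2684 in KO. Without WT libraries numbered 2 there were 2737 in place of 4388 for IL4, 291 for corticosterone and 936 for dexamethasone in WT, 1116, 1396 and 1595 for KO against WT under IL4, corticosterone and dexamethasone (in place of 1802, 2102 and 2512), and 2831 and 2852 for IL4 against corticosterone and dexamethasone (in place of 4628 and 4619). Without the libraries high in Arg1 there were 941 and 1789 for the KO hormones, and 1680 and 1378 for KO against WT with vehicle (in place of 2738) and dexamethasone. With only the groups compared there were 1329 for dexamethasone in WT, 1745 in place of 3873 for IL4 in KO, and 1641 and 616 for KO against WT with vehicle and IL4. Interactions, at 4, 3 and 27, ranged over the alternatives from 0 to 149 for IL4, 0 to 110 for corticosterone and 6 to 214 for dexamethasone. Replicate numbers did not pair KO dexamethasone with vehicle (5 of 8 libraries correlated best with their own number) or KO with WT (1 of 6 with vehicle), so the block there is only a check. Scaling levels by total counts in place of TMM gave 98.3 CPM per kb for Junb in WT vehicle libraries, and searching only the 250 bases before the start sites left the members with a CArG box (1), TGACG (5) and TGACATCA (1) the same in number.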
